A study of Mus musculus with 2 samples.

Results

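The genes described here carry out cholesterol synthesis, its control by sterols, and the movement of cholesterol into, within and out of cells. They were chosen by name as 28 of the 21911 named protein-coding genes of the mouse annotation, by a rule that uses no measured value, though with earlier results of these data known. DNase-seq, which maps DNA that the enzyme DNase I can reach in nuclei, was carried out on whole midbrain from healthy mouse embryos of strain B6NCrl at embryonic day 14.5. Male and female embryos were pooled, no treatment or altered allele is given, and 2 biological replicates of this 1 group were listed under a single donor entry. Each replicate came with its own list of peaks, so each was called by itself and mapped to mm10. The sources used here name neither the aligner nor the peak caller, and read depth is not known. Because there was 1 group, no test between conditions could be made, and every member is given by its value in both replicates. The tissue was bulk and holds several cell types, so an open site may belong to all of its cells or to some of them, which cannot be told apart.

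Cells build cholesterol from acetyl-CoA through mevalonate, farnesyl diphosphate, squalene and lanosterol. When sterols are scarce, the escort protein SCAP carries the precursors of the SREBP transcription factors to the Golgi, where they are cut and released to the nucleus, and INSIG proteins hold them back when sterols are plentiful. SREBPs bind sterol regulatory elements and are known to act at promoters together with NF-Y, which binds the CCAAT box, and with Sp1, which binds the GC box. The brain makes its own cholesterol, since lipoproteins of the blood do not cross the blood-brain barrier, and inherited loss of DHCR7 or of NPC1 or NPC2 disturbs the nervous system.

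Peaks reaching into the 1000 bp on either side of a gene's annotated starts were its promoter peaks, and a peak was shared if the replicates' intervals had 1 bp or more in common. All 28 members had a shared promoter peak, against 68.9% of all genes (15107 of 21911). In single replicates all 28 had one too, against 75.8% of genes in replicate 1 and 72.4% in replicate 2. The peak value is the authors' own number, a whole number of at most 150 in both lists, and serves here to rank peaks within 1 list. The replicates were not on a common scale: replicate 1 held 710176 peaks with a median value of 6, and replicate 2 held 267958 with a median of 51. The label midbrain was checked on marker genes: shared promoter peaks were found for 4 of 4 midbrain genes, 7 of 7 progenitor genes and 6 of 6 neuronal genes. Of the other cell types, the counts were 3 of 4 for astrocytes, oligodendrocytes and microglia, 2 of 3 for endothelium, and 1 of 4 for hepatocytes and for erythroid cells. Peaks at the 3 microglial promoters were weak, from 18 and 49 at C1qa to 23 and 69 at P2ry12 in replicates 1 and 2. They were below every member, save that P2ry12 equalled Apoe at 23 in replicate 1. Some shared peaks of other types were also weak: Sox10 of oligodendrocytes had 15 and 56, Pecam1 of endothelium 10 and 35, and Ttr of hepatocytes 13 and 51. Others were stronger, such as Mbp of oligodendrocytes with 59 and 126.

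The open stretches that carry the sequence results are printed first, from the mouse reference sequence GRCm38.p6 (mm10), 5′ to 3′ on the strand of the gene. Capitals mark the sterol element TCACNCCAC and the CCAAT box (written ATTGG where it lies on the other strand). At Abca1 they mark a match to a loose pattern of the DR4 repeat that nuclear receptors such as LXR bind. Hmgcs1 and Srebf1 are shown because they were the members with an exact sterol element in a shared promoter peak. The others were chosen after their values were seen, to show the CCAAT boxes of 5 enzyme, regulator and sensor promoters and the DR4 repeat. The Hmgcs1 peak is chr13:119690156-119690305 (plus strand), and the Srebf1 peak, at the first start of the gene, is chr11:60222836-60222985 (minus strand). The Fdps peak is chr3:89101976-89102125 (minus), Sqle chr15:59314896-59315045 (plus) and Hsd17b7 chr1:169969256-169969405 (minus). The Srebf2 peak is chr15:82147016-82147165 (plus), Insig1 chr5:28071156-28071305 (plus) and Abca1 chr4:53159936-53160085 (minus). Each printed stretch lies outside every annotated exon.
Hmgcs1: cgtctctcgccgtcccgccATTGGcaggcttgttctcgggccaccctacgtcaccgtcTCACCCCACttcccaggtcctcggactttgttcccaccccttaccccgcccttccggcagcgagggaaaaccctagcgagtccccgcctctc
Srebf1: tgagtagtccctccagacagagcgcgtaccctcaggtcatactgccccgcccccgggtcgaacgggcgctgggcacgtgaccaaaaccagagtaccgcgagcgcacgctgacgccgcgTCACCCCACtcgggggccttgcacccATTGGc
Fdps: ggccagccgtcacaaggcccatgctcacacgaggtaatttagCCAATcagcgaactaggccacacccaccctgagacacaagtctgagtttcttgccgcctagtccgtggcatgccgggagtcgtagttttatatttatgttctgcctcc
Sqle: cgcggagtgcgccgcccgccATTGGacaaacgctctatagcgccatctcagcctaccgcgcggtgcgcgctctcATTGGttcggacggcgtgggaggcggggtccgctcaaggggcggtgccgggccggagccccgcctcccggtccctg
Hsd17b7: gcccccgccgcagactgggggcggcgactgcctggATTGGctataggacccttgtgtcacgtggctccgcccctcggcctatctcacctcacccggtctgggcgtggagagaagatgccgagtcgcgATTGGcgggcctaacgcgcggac
Srebf2: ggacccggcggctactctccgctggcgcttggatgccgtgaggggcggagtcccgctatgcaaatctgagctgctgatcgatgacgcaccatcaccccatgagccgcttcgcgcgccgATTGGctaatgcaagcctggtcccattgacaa
Insig1: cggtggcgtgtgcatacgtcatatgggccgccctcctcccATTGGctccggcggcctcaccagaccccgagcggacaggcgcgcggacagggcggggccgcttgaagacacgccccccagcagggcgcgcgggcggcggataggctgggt
Abca1: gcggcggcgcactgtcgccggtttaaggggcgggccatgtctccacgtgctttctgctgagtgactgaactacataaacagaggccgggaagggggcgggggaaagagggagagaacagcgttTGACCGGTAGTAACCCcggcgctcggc

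Most members had strong promoter peaks. The strongest promoter peak of each gene had a median value of 118.5 over the members in replicate 1, against 86 over all genes with a promoter peak, and of 143.5 against 136 in replicate 2. Ranked within each list and averaged over the replicates, the members' peaks stood at a median percentile of 99.1. The median was 97.9 over the 15308 genes with a promoter peak in both replicates. Shares of genes above or below a member, and the median gene by rank, refer to these ranked genes, not to all 21911. By this rank 23 of 28 members were above the median gene and 14 above the upper quartile of genes. The members ran from Hmgcs1, above 99.9% of genes, down to Apoe, above 9.26% of them.

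**Figure D1:**
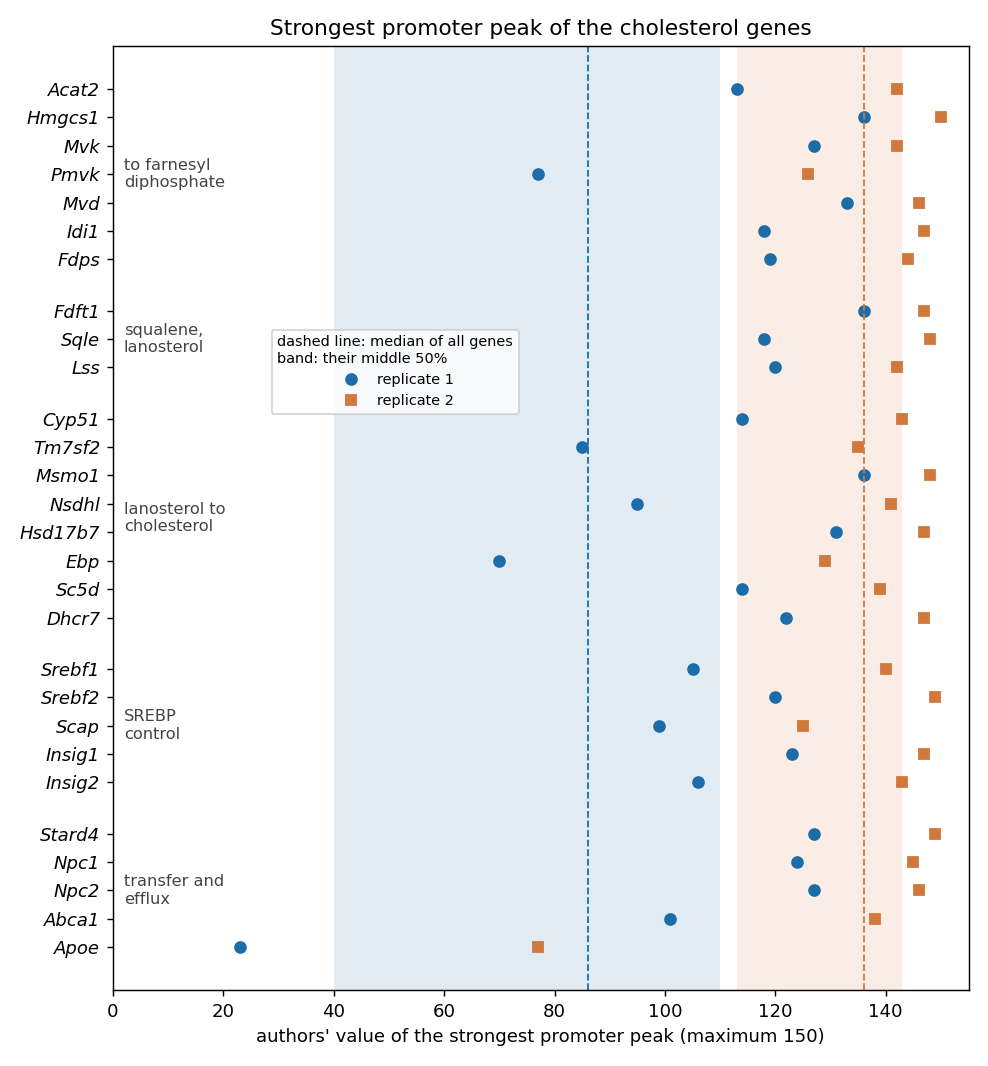
Value of the strongest promoter peak (horizontal axis, the authors' value, at most 150) of each of the 28 members, grouped by role, with circles for replicate 1 and squares for replicate 2. Dashed lines are the medians over all genes with a promoter peak (86 and 136) and bands hold the middle 50% of genes. Most members lie to the right of the median of their replicate, and Apoe lies far to the left at 23 and 77.

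The 7 genes of the first steps, from acetyl-CoA to farnesyl diphosphate, had median values of 119 in replicate 1 and 144 in replicate 2. Hmgcs1, the cytosolic HMG-CoA synthase, had the highest rank of all members, with 136 and 150 in replicates 1 and 2. Mvd, the mevalonate diphosphate decarboxylase, reached 133 and 146, and Idi1, the isomerase of isopentenyl diphosphate, 118 and 147. Mvd stood above 92.0% of genes and Idi1 above 91.4%. Mvk, the mevalonate kinase, had 127 and 142, and Fdps, which makes farnesyl diphosphate, 119 and 144. Acat2, the thiolase that opens the pathway, had 113 and 142. These 3 genes were above 70.2% to 80.2% of genes. Pmvk, the kinase that follows Mvk, was the low member of the group at 77 and 126, with 33.9% of genes below it. Its peaks lay 4610 bp inside the gene record, at later coding starts, and the first annotated start had no shared peak.

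The 3 genes of the squalene and lanosterol steps were all above the median gene. Fdft1, the squalene synthase that commits farnesyl diphosphate to sterols, had 136 in replicate 1 and 147 in replicate 2, above 96.0% of genes. Sqle, the squalene epoxidase, had 118 and 148. Lss, which closes the epoxide into lanosterol, had 120 and 142 and stood above 72.9% of genes. The Fdft1 peak was centred 1547 bp inside the gene record and 234 bp upstream of the nearest start, the largest such distance among the 28 members.

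The 8 genes that turn lanosterol into cholesterol had median values of 114 in replicate 1 and 142 in replicate 2, with 6 of 8 above the median gene. Msmo1, the methylsterol monooxygenase, had 136 and 148 in replicates 1 and 2, above 98.5% of genes. Hsd17b7, a ketosteroid reductase of the demethylation steps, had 131 and 147. Dhcr7, the reductase that forms cholesterol, had 122 and 147. These 3 were above 92.8% of genes or more. Cyp51, the lanosterol demethylase, had 114 and 143, and Nsdhl, the dehydrogenase of the same steps, 95 and 141. Sc5d, the sterol desaturase, had 114 and 139. Nearer the middle of the ranked genes stood Nsdhl and Sc5d, above 60.6% and 61.4% of them. Tm7sf2, a sterol reductase, had 85 and 135, and Ebp, the sterol isomerase, 70 and 129. These last 2 were below the median gene, with 45.0% and 35.0% of genes under them.

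Of the 5 genes of sterol sensing, 4 were above the median gene. Srebf2, the SREBP chiefly of cholesterol genes, had 120 in replicate 1 and 149 in replicate 2, above 97.0% of genes. Srebf1, the SREBP chiefly of fatty acid genes, had 105 and 140 at its strongest start. Insig1 had 123 and 147, and Insig2, the other retention protein of the endoplasmic reticulum, 106 and 143. Insig1 ranked above 93.0% of genes and Insig2 above 71.0%. Scap, the escort of the SREBPs, was the low member with 99 and 125, above 36.3% of genes.

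Among the 5 genes of transfer, lysosomal export and efflux, Stard4, a cytosolic sterol carrier, ranked highest with 127 and 149, above 98.9% of genes. Npc1 and Npc2, the membrane and soluble proteins that take cholesterol out of lysosomes, had 124 and 145, and 127 and 146. They stood above 85.9% and 90.6% of genes. Abca1, the transporter that loads cholesterol onto apolipoproteins, had 101 and 138, near the middle of the ranked genes at 55.0%. Apoe, the main apolipoprotein of brain lipoproteins and in the adult brain largely a product of astrocytes, had 23 and 77, the lowest of the members in both replicates. Astrocyte markers were also mixed: Gfap had 72 and 124 and Slc1a2 77 and 130, while Aqp4 had 17 and 67. Aldh1l1 had 14 in replicate 1 and 81 in replicate 2, but in peaks that were not shared. The part of cell type in the low Apoe value was not tested.

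Hotspots, the wider regions of enriched cleavage that the authors called apart from the peaks, were not used to choose the members. The hotspot that holds the strongest promoter peak had a median width of 1054 bp over the members in replicate 1, against 861 bp over all genes, and of 1640 bp against 1451 bp in replicate 2. All 28 members' hotspots stood at the cap of 100 of the authors' −log10 q in replicate 2, and 27 did in replicate 1, where Apoe had 6. The median gene was also at the cap in both replicates, so this value does not separate the members from other genes. In the 1000 bp around the centre of the strongest replicate 2 promoter peak, CpG was compared with the frequency that base composition gives. The median ratio was 0.666 over the members, against 0.711 over all genes with such a peak. GC content had a median of 58.85% against 59.0%. Apoe was lowest in both, at 0.365 and 49.2%.

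The strongest peaks of the replicates overlapped for 26 members, with centres at most 80 bp apart. In replicate 2 the strongest peak was centred upstream of the nearest annotated start for 23 of 28 members, at a median of −91 bp. Both counts were made over the members alone, so they do not set these genes apart from others. At Dhcr7 the replicates chose different starts, 7160 bp apart, both with coding transcripts. The start of the gene record (chr7:143822896-143823045) had 118 and 147 in replicates 1 and 2. The inner start (chr7:143830036-143830185) had 122 and 144, so the pair was close in both replicates. At Apoe the strongest peaks were 880 bp apart. Its peak at the first start had 23 in replicate 1 and 72 in replicate 2, and the later one 19 and 77.

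Srebf1, whose alternative first exons give the SREBP-1a and SREBP-1c proteins, was open at 3 separate start regions. The strongest, chr11:60210456-60210605, lay 12050 bp inside the gene record at a coding start and had 105 and 140. The second, chr11:60220556-60220705, lay at +1950 bp, also at a coding start, and had 67 and 130. The third, chr11:60222836-60222985, lay at −330 bp from the 5′ end of the gene record, where the nearest start was that of a non-coding transcript, and had 55 and 115. The inner region was thus the strongest in both replicates, and the same order of the 3 held in each. Which protein each start gives was not assigned here. At Insig2 the shared peak stood at a cluster of 8 coding starts, 4565 to 4911 bp inside the gene record, and the coding start at its 5′ end had no shared peak. Npc1 had a minor second region at a non-coding start, with 9 and 43.

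Several of the strongest peaks lay within 1000 bp of a gene read in the opposite direction. This was so at Mvk, shared with Mmab, an enzyme of cobalamin metabolism, at Nsdhl with Cetn2, at Npc2 with Isca2, and at the 5′ end of Dhcr7 with Nadsyn1. At Hsd17b7 and Insig1 the neighbours were non-coding, and at Idi1 and Insig2 they were records of unproven coding potential (Gm48574 and Gm37174). For these genes the open site cannot be given to 1 of the pair.

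Sequence motifs were counted as exact matches on either strand in the 150 bp of each gene's strongest promoter peak of replicate 2, over the members and over the 15873 genes with such a peak. A match is a description of letters, not a bound site. The CCAAT box was the clearest difference from all genes, though some other gene lists, given below, had like shares. It was found in 22 of 28 members, against 27.9% of all genes, which for the members is 78.6%. With the strongest peaks of replicate 1 the counts were 23 members and 28.1% of genes, and with every shared promoter peak of a gene 24 members and 42.1%. The members without it in replicate 2 were Pmvk, Dhcr7, Scap, Insig2, Npc1 and Abca1, so 16 of the 18 enzymes of synthesis held it. Because most of these motif searches were listed with earlier results of the data known, and the comparison with peak value was added after seeing the counts, the shares carry no test.

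CCAAT boxes are more frequent at strong promoters in general, so the members were also set beside genes of like peak value. Of the 12 members with replicate 2 values above 145, 11 held a box, against 51.6% of the 2338 genes in that range. From above 140 to 145 it was 6 of 8 against 35.8%, and from above 130 to 140 it was 3 of 4 against 23.5%. Below these, 1 of 3 members from above 100 to 130 held it, against 19.0%, and Apoe, the single member at or below 100, did as well, against 15.5%. The members' share was the higher in every range. All genes, with the ranges weighted as the members fall in them, would give 38.3%, below the 78.6% seen.

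**Figure D2:**
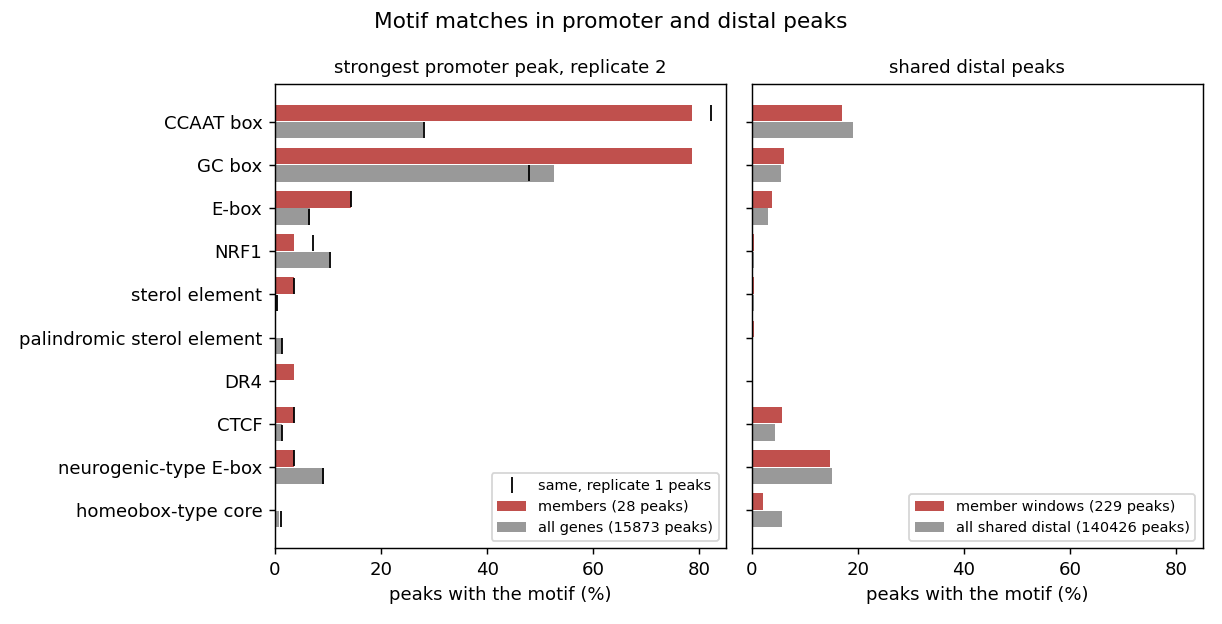
Share of peaks with each motif (horizontal axis, percent), in the strongest promoter peak of replicate 2 (left) and in shared distal peaks (right), for the members (red) and for all genes or all shared distal peaks (grey); ticks give the replicate 1 peaks. The CCAAT box stands at 78.6% of members against 27.9% of genes at promoters, and at 17.0% against 19.2% in distal peaks.

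Members often held more than 1 box. At least 2 CCAAT boxes were found in 9 members (32.1%), against 8.98% of genes, with 4 in Fdft1 and 3 in Idi1. A CCAAT box and a GC box (GGGCGG) stood together in 18 members (64.3%), against 15.1% of genes. Neither count was weighted by peak value. The joint count also rises with the share of each box alone, so it is not a separate result. The GC box itself was in 22 of 28 members, against 52.7% of genes, and weighting by peak value as above would give 62.5%. In replicate 1 it was in 25 members, against 48% of genes, and over all shared promoter peaks of a gene in 22, against 65.9%. The 34 CCAAT boxes of the members had a median place of −73 bp from the nearest start, and 18 of 34 (52.9%) lay between −150 and −30 bp, against 55.8% of the 6278 boxes of all genes. Their direction differed more: 25 of 34 (73.5%) lay on the strand opposite to the gene, against 50.4% of the boxes of all genes. The 34 boxes came from 22 members, so boxes of 1 gene are not independent. At some members, such as Mvk and Nsdhl, the opposite strand is also that of a neighbouring gene. In the printed stretches this is seen as ATTGG in Hmgcs1, Sqle, Hsd17b7, Srebf2 and Insig1, while Fdps reads CCAAT.

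**Figure D3:**
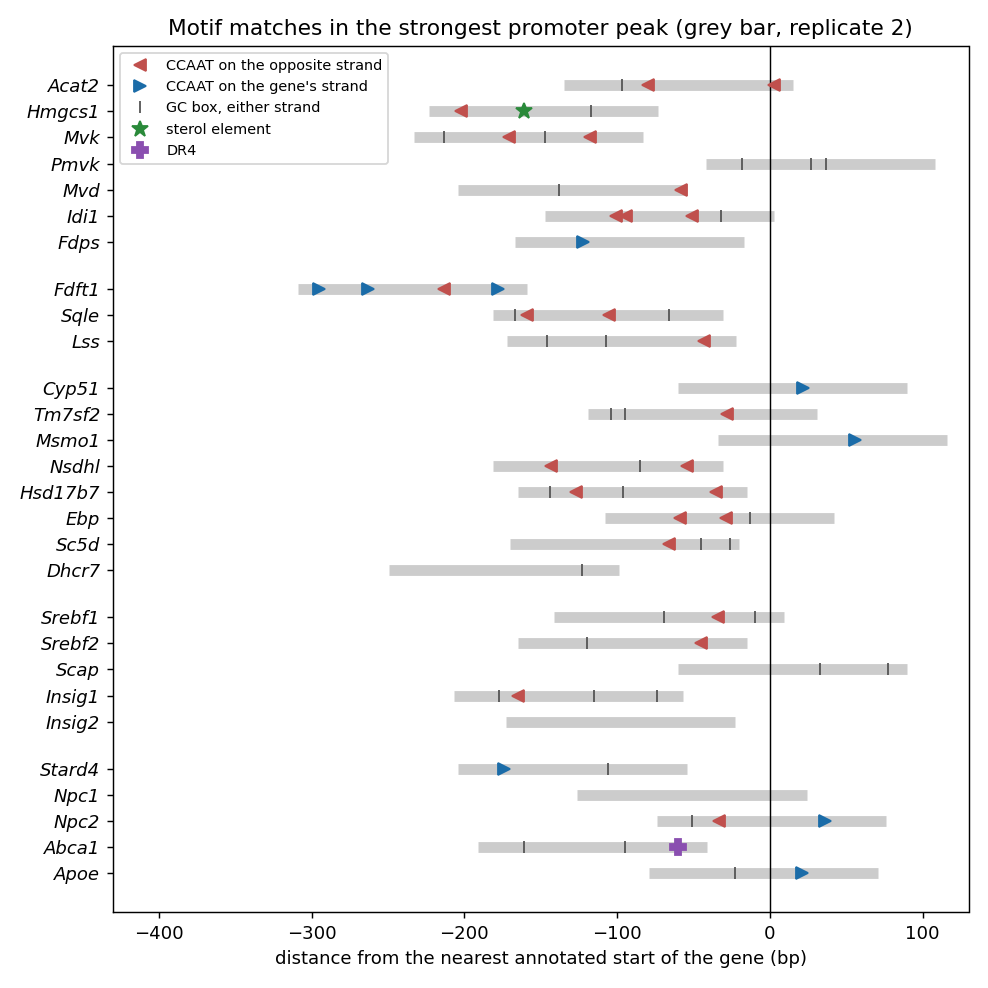
Place of motif matches in the strongest replicate 2 promoter peak (grey bar) of each of the 28 members, as the distance in bp from the nearest annotated start of the gene, negative upstream. Triangles are CCAAT boxes, pointing left where the box lies on the strand opposite to the gene, bars are GC boxes, the star is a sterol element and the plus a DR4 repeat. Of the 34 boxes, 29 (85.3%) lie upstream of the start, close to the 82.9% of the boxes of all genes. Left-pointing boxes number 25 (73.5%), against 50.4% over all genes.

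Exact sterol elements (TCACNCCAC) were few. In any shared promoter peak they were found in 2 of 28 members, Hmgcs1 and Srebf1, against 1.22% of genes. In the strongest peak of replicate 2 alone it was Hmgcs1, against 0.441% of genes, and the same gene in replicate 1, against 0.427%. The Hmgcs1 element lay at −161 bp from the nearest start, between a CCAAT box at −202 bp and the start. The Srebf1 element lay in the third start region, the weakest of the 3, close to a CCAAT box in the printed stretch. Within 1000 bp of every start, open or not, an element was found in 5 members, Hmgcs1, Lss, Srebf1, Scap and Npc2 (17.9%), against 14.9% of all genes, so the wider search did not set the members apart. The palindromic element TCACGTGA, which holds the E-box CACGTG, was in no strongest promoter peak of a member, against 1.38% of genes. These counts say only that such letters were or were not in these windows.

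Each of the remaining motifs was in 4 members or fewer by the strongest replicate 2 peak, some above and some below the share of all genes. CACGTG was in 4 members, Hsd17b7, Sc5d, Scap and Abca1 (14.3%), against 6.65% of genes, and in any shared promoter peak in 5, against 12.7%. The NRF1 motif GCGCANGCG was in Scap, against 10.2% of genes, and the CTCF core was also in Scap, against 1.34%. CAGCTG, an E-box of neurogenic factors, was in Msmo1, against 9.24% of genes, and TAATTA was in no member, against 0.75%. Abca1, a known target of the oxysterol receptor LXR, had a match to the loose DR4 repeat pattern at −60 bp from its start in the replicate 2 peak. Only 6 of 15873 genes (0.0378%) had such a match. The replicate 1 peak of Abca1, centred 20 bp away, did not take in the repeat, and no member had one there, against 0.0662% of genes.

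Distal sites were described from shared peaks centred in the gene body or within 50 kb either side, and over 1000 bp from any coding transcript start. The 28 windows held 229 such peaks. The median was 8.5 a member against 7 over all genes, 15 members were above the median gene and 3 were above the upper quartile of 12. Per 100 kb of window the medians were 6.75 and 5.02. The peaks were of ordinary strength, with median values of 18 in replicate 1 and 63 in replicate 2, against 18 and 60 over all 140426 shared distal peaks. By place, 33 lay in the body of the member, 82 upstream and 114 downstream. Introns of any gene held 121, and introns of the member 29. Since only coding starts were avoided, 3 of the 229 were also within 1000 bp of some start of the member. These 3 counted as promoter peaks too. For 95 of the 229 (41.5%) the nearest coding start was that of the member itself.

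**Figure D4:**
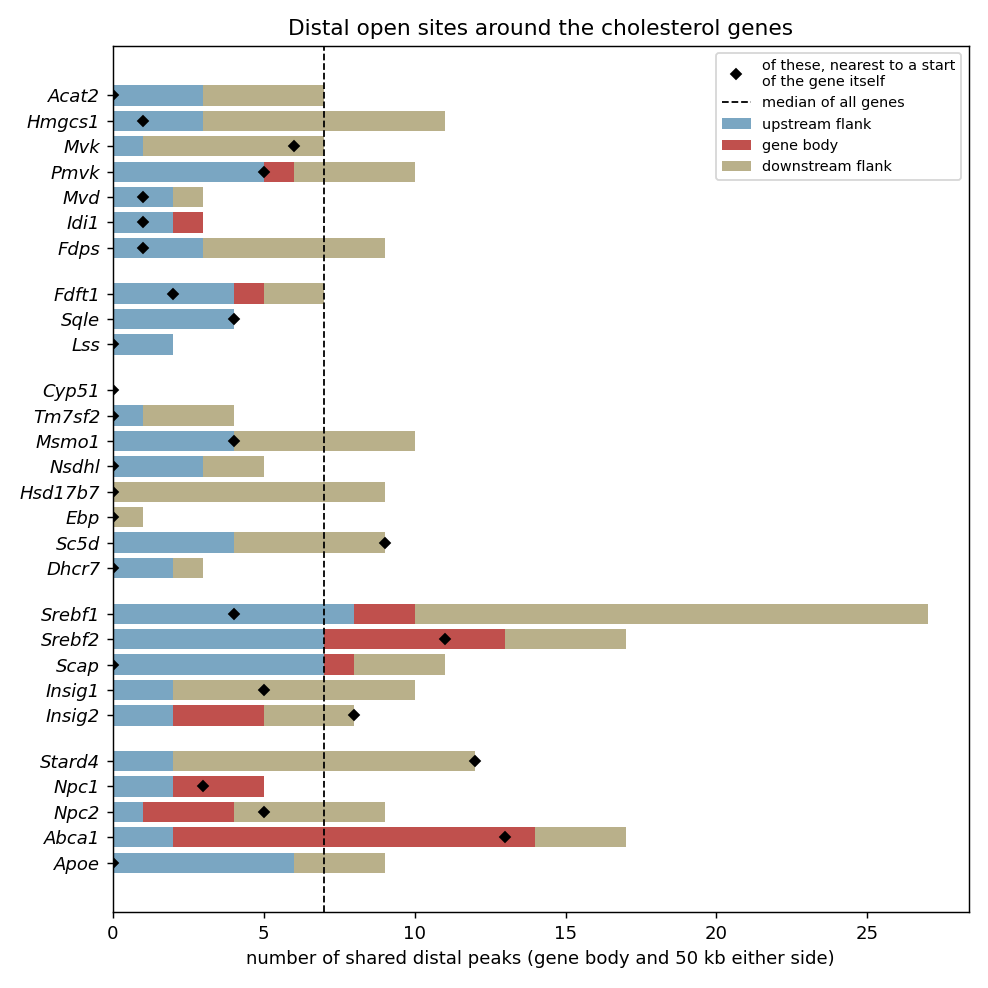
Number of shared distal peaks in the window of each of the 28 members (horizontal axis), stacked by upstream flank, gene body and downstream flank; diamonds give those nearest to a coding start of the gene itself and the dashed line is the median of all genes (7). Srebf1 has 27, Srebf2 and Abca1 17 each, and Cyp51 none.

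By role, the median number of distal peaks was 7 for the first steps, equal to that of all genes, 4 for squalene and lanosterol and 4.5 for lanosterol to cholesterol. Sensing genes had a median of 11 and transfer and efflux genes 9. Srebf1 had the most with 27, but 16 of these were nearest to Rai1, 7 to Tom1l2 and 4 to Srebf1 itself. Srebf2 had 17, of which 11 were nearest to its own starts. Abca1 also had 17, with 12 in its body and 13 nearest to its own start. Stard4 had 12 and Sc5d 9, all nearest to their own starts, though none lay in their bodies. The 10 downstream peaks of Stard4 lay in introns or a coding exon outside the Stard4 record. Some of the Sc5d peaks likewise lay in introns outside Sc5d. Cyp51 had none, Ebp had 1 and Lss 2. Apoe, the member with the weakest promoter, had 9 distal peaks in its window, none of them nearest to its own starts. At Insig1, 5 of the 10 lay nearest to En2, a gene of midbrain and hindbrain patterning. These windows are shared with neighbours, and which gene a distal site serves was not measured.

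**Figure D5:**
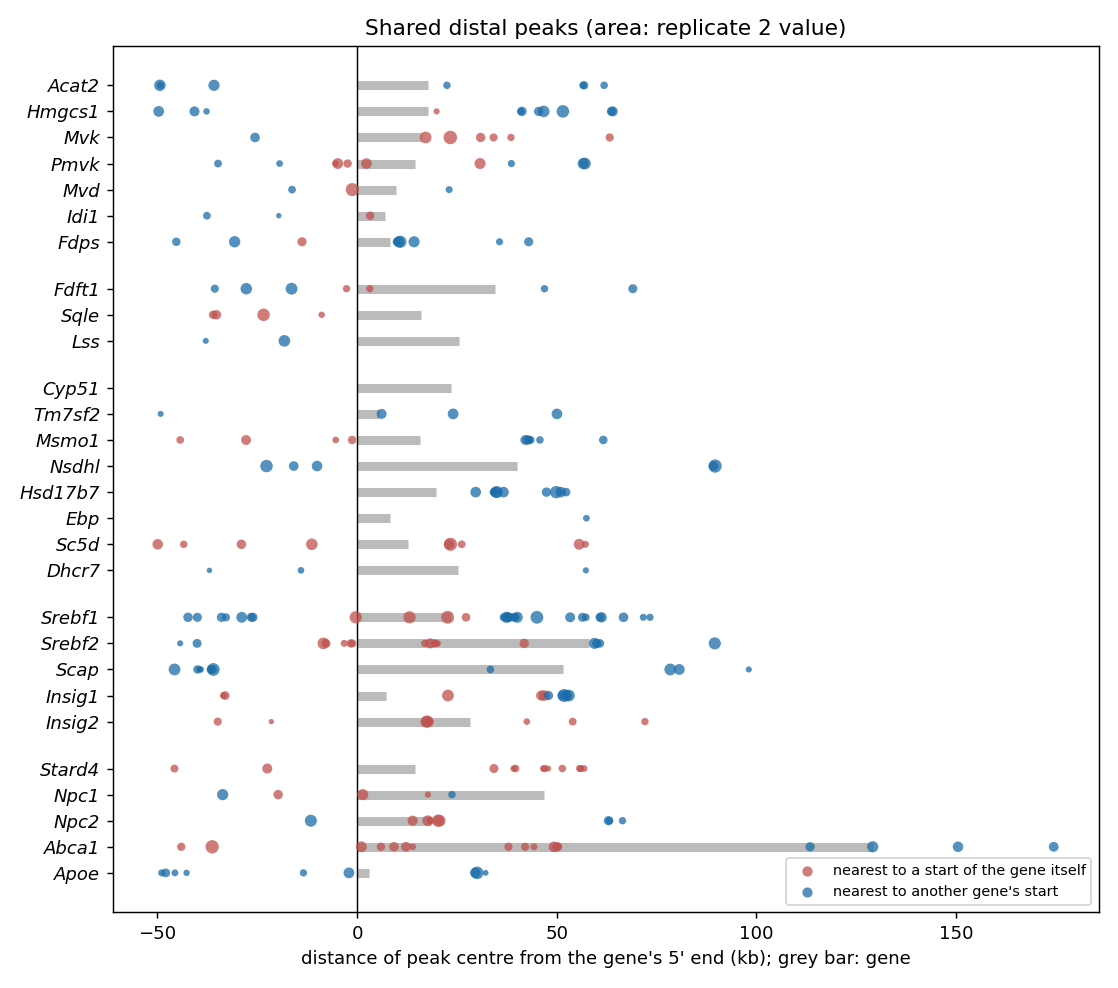
Shared distal peaks of each member by the distance of their centre from the 5′ end of the gene (horizontal axis, kb, negative upstream), with grey bars for the gene and circle area by replicate 2 value. Red peaks (95 of 229) are nearest to a start of the member, blue ones to a start of another gene; Abca1 has 12 in its body, while those of Hsd17b7 are all downstream and blue.

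The strongest distal peak by rank lay 23362 bp from the 5′ end of Mvk, downstream of the gene and outside any gene, at chr5:114467556-114467705, with 94 in replicate 1 and 140 in replicate 2. Its sequence on the strand of Mvk is shown because it ranked first, with a CAGCTG match in capitals.
Mvk distal: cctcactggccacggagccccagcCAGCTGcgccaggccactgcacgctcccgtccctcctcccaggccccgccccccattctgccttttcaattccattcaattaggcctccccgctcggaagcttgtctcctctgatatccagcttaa
Next came chrX:73008156-73008305 in the Nsdhl window, in an intron of Zfp185, with 104 and 135. A peak 36276 bp upstream of Abca1, chr4:53196096-53196245, had 92 and 136. All 3 were below the members' median promoter values of 118.5 and 143.5. The next were at Mvd (chr8:122444536-122444685, 94 and 131), Insig1 (chr5:28123176-28123325, 87 and 131) and Sc5d (chr9:42240776-42240925, 77 and 132). The Mvd peak lay 1189 bp upstream of the start, and the Insig1 peak 51888 bp from the 5′ end and nearest to En2.

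Distal peaks of the members did not carry the promoter pattern. The CCAAT box was in 17.0% of them, against 19.2% of all shared distal peaks, and CAGCTG in 14.8% against 15.2%. The CTCF core was in 13 peaks (5.68%) against 4.37%, and TAATTA in 5 peaks (2.18%) against 5.75%. A palindromic element TCACGTGA lay in an intron of Abca1, 5984 bp from its 5′ end, in a peak of 11 and 54. The sterol element counted here was the Srebf1 peak named above, which is over 1000 bp from any coding start.

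Of 61 other genes of cholesterol and lipid handling, 51 (83.6%) had a shared promoter peak, against the 68.9% of all genes given above. Their median rank was 98.0, close to the 97.9 of all genes with a promoter peak in both replicates, and 29 were above the median of these. All genes of 5 lists had one: 9 of isoprenoid branches, 10 of sterol sensing, 12 of uptake and transfer, 10 of efflux and clearance, and 8 fatty acid targets of SREBP. The highest were Osbpl2, an oxysterol-binding protein relative, with 131 and 149, Ggps1, which makes geranylgeranyl diphosphate, with 127 and 148, and Nus1, a subunit of the enzyme of dolichol synthesis, with 126 and 148. In the list of sterol genes of liver, gut and steroid-making tissue it was 2 of 12, Apob with 62 and 110 and Abcg5 with 20 and 70. No shared promoter peak was found for Cyp7a1 and Cyp8b1 of bile acid synthesis, Cyp11a1 and Star of steroid synthesis, Abcg8, Apoa1, Lcat, Lipc, Npc1l1 or Soat2. The CCAAT box was in the strongest replicate 2 peak of 25 of the 54 other genes that had one, between the share of the members and that of all genes. It was in 6 of 8 fatty acid targets of SREBP, near the members' share, and in 6 of 12 uptake genes. Efflux gave 4 of 10, sensing 3 of 10, isoprenoids 3 of 9 and the liver list 3 of 5. Of the marker genes with such a peak, it was in 6 of 7 for progenitors, 4 of 6 for neurons and 3 of 4 for midbrain. It was in 1 of 4 for astrocytes, 1 of 3 for oligodendrocytes and none for the rest. A high share was thus not particular to the members.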

How the data were processed

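DNase-seq peaks and hotspots of 2 replicates of E14.5 midbrain were used as deposited; groups and replicate numbers are from the labels. Per the file headers' format, column 7 of the authors' peak lists is a signal value, with no stated scaling, and the hotspot lists give the authors' −log10 q (threshold q = 0.05). Assembly mm10 is per the labels; the sources used here name no aligner or caller. Annotation was GENCODE M21 and sequence GRCm38.p6. Percentiles were taken within each replicate's list, with ties averaged, and averaged over the replicates. Shared peaks are described by the replicate 2 interval. Genes were matched by name and counted once. All 28 members are named, with the 3 highest other pathway genes, those not shared, and the 6 highest distal peaks, at most 1 a member. Members and lists were chosen with earlier results of these data known. Overlap, rank and motif code was tested on simulated data. No depth was available, and no interval was computed. Tools were Python 3.11.15, numpy 2.4.6, pandas 2.3.3, pysam 0.24.0, samtools 1.23.1 and matplotlib 3.10.9.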

Additional observations from a re-analysis of the deposited data

How the results depend on the processing

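The count of members with a shared promoter peak was 25 with the 5′ end of the gene record as the single start (Pmvk, Fdft1 and Insig2 were lost, and all genes fell to 64.3%), 27 with an overlap of at least 75 bp (Pmvk was lost), and 28 under the other settings tried. Leaving out 1 replicate gave 28 and 28. The median percentile ran from 98.6 to 99.7 when 1 replicate was left out, and the median number of distal peaks from 12.5 to 31.5, against 11 and 22 over all genes; without replicate 2 it was 31.5, since the list of replicate 1 is longer. The distal median was 4 with the peaks ranked above the middle of each list, as for all genes, 2 with flanks of 20 kb and 15 with flanks of 100 kb. Members with a sterol element were 5 with 1000 bp either side of every start, a larger window, and 1 with the strongest shared promoter peak alone. The CCAAT count was 21 to 24 under the settings tried, all chosen after seeing the data. Leaving out replicate 2 and taking the strongest peaks of replicate 1 were the same count, 23, and are not separate settings. Of 252 distal counts of single members under the alternatives, 62 moved by more than the replicate spread. No paired analysis was possible because there is 1 group. With 2 replicates, of bulk tissue and unknown depth, a missing peak does not show a closed site.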
